A study of Mus musculus with 14 samples.

Results

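The genes described here are 42 genes of the urea cycle and of amino acid breakdown, chosen by name from the 54532 genes of the count table. They comprise 6 urea cycle enzymes, 5 carriers and the glutaminase Gls2, 5 genes of tyrosine breakdown and 5 of tryptophan breakdown. The others are 7 of serine, glycine and proline breakdown, 7 of methionine and homocysteine metabolism, 3 of histidine breakdown and 3 aminotransferases. All 42 had at least 10 counts in every library and passed the filter on low counts, which left 17874 genes for testing. Liver RNA of C57BL/6J mice at 52 weeks of age was sequenced. The groups were wild-type females (n = 2, numbered 2 and 3), non-tumour liver of Abcb11-/- females (n = 3), tumours of Abcb11-/- females (n = 3), wild-type males (n = 3) and Abcb11-/- males (n = 3), whose tissue is labelled as liver with no mention of a tumour. Abcb11 encodes the bile salt export pump of the hepatocyte, so that the knockout is a model of impaired bile salt secretion. Groups of 3 mice are stated in the design text, and a wild-type female numbered 1 is not analysed here. No other allele and no treatment is given in the labels, and they do not say whether a tumour and a non-tumour sample of equal number came from 1 animal.

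The urea cycle disposes of the ammonia set free when amino acids are broken down, and in mammals it runs in full mainly in the hepatocytes around the portal tract. Its first steps lie in the mitochondrion (Cps1 and Otc, with Nags making the activator of Cps1) and the later ones in the cytosol (Ass1, Asl and Arg1). Much of the breakdown of tyrosine, tryptophan, histidine, methionine and proline also takes place in hepatocytes, and many of these genes are known to respond to feeding, glucagon and glucocorticoids.

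Library totals ran from 14745140 to 19480538 counts, and mitochondrial genes took 15.7% to 42.2% of them. Abcb11 stood at 270 to 489 CPM (counts scaled to a common library total, with TMM factors) in the wild-type libraries and at 17.9 to 104 CPM in the knockout libraries, with no overlap. Within the knockout it stood at 17.9 to 35.9 CPM in non-tumour female liver, 18.0 to 34.3 CPM in tumours and 62.1 to 104 CPM in males. All 7 hepatocyte markers checked were detected in each library, and their summed level ran from 24992 CPM in wild-type male 3 to 78064 CPM in tumour 3. Wild-type male 3 also had the highest sum of 7 lymphocyte markers, 397 CPM against 2.79 to 60.2 CPM in the others. The 42 genes took 1.01% of counts in that library, the lowest share, and 4.03% in non-tumour 3, the highest, libraries in which mitochondrial genes took 42.2% and 16.7%. Of the counts outside mitochondrial genes the 42 took 1.57% in tumour 2, the lowest share, 1.75% in wild-type male 3 and 4.84% in non-tumour 3, the highest. In bulk tissue, fewer cells of a type and less RNA per cell cannot be told apart.

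Of the 42 genes, 18 were higher and 2 lower in knockout than in wild-type males, at an adjusted p under 0.05 in edgeR's quasi-likelihood test. Over all genes tested, 14.3% were called higher and 6.32% lower in that comparison. The median log2 fold change was 0.96 over the 42 genes and 0.11 over all genes tested, and the libraries did not overlap for 26 genes higher and 3 lower (23.1% and 12.2% of all genes). In non-tumour knockout against wild-type female liver, 2 genes were called higher (background 1.9%) and 0 lower (background 2.26%), with a median log2 fold change of 0.54 against −0.00 over all genes. Those 0 calls in edgeR stand beside 2 genes lower at an unadjusted p under 0.05 and 2 called lower by DESeq2. Between tumours and non-tumour knockout liver none of the 42 was called (background 0%), while 39 of 42 estimates were below 0, with 10 genes lower at an unadjusted p under 0.05 in edgeR and 1 called lower by DESeq2. Fold changes are given on the log2 scale with an SE, taken as the absolute change over the root of its F statistic, and each adjusted p is edgeR's, by Benjamini-Hochberg over all genes tested.

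**Figure D1:**
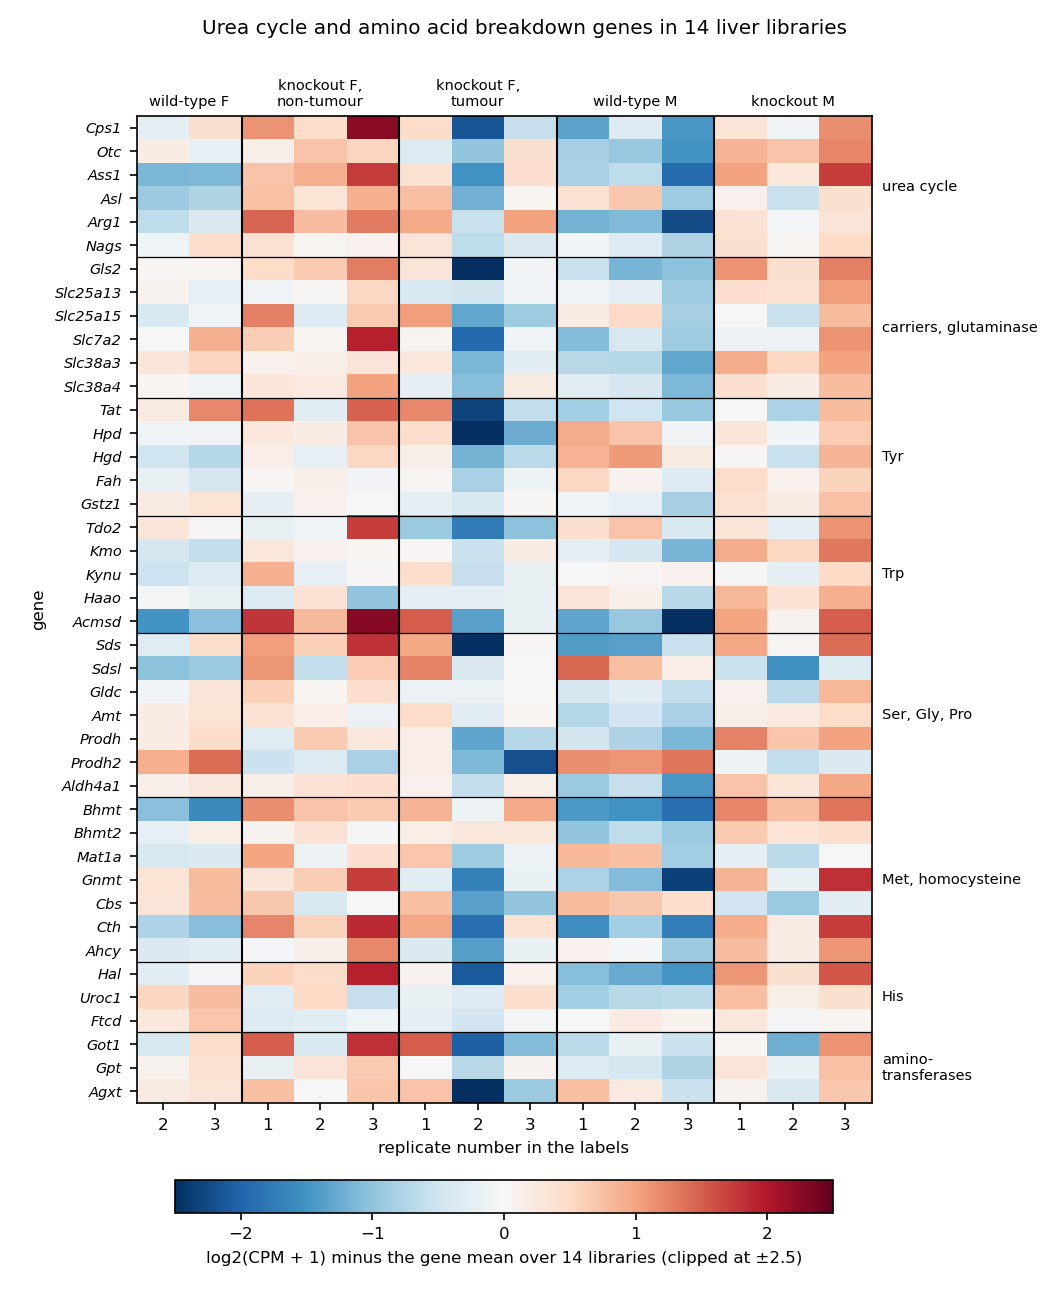
Level of each of the 42 genes (rows, by role) in each of the 14 libraries (columns, by group and replicate number), as log2(CPM + 1) minus the gene's mean over all libraries, with red above and blue below that mean. Tumour 2 is the lowest tumour for 38 of 42 genes (29.8% of all genes tested) and knockout male 2 the lowest knockout male for 41 of 42 (33.6%).

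The urea cycle enzymes were first set side by side on the deposited FPKM scale, which divides by gene length. Of the 42 genes, Hpd, Bhmt, Mat1a, Ass1 and Arg1 had the highest means over the 5 groups, at 590.5, 582, 580.1, 524 and 509.9 FPKM. Acmsd, Kynu, Amt and Nags had the lowest, at 5.22, 11.1, 13.6 and 15.8 FPKM. Within the cycle, Ass1 (argininosuccinate synthase) and Arg1 (the arginase that releases urea) thus had the highest and Nags (N-acetylglutamate synthase) the lowest level.

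Ass1, in the order of the replicate numbers, stood at 476 and 485 CPM in the wild-type females, 1719, 1988 and 3540.03 in non-tumour knockout liver, 1366, 369 and 1401 in tumours, 599.99, 679 and 278 in wild-type males and 2108, 1269.6 and 3473 in knockout males. All knockout libraries except tumour 2 lay above every wild-type library. It rose in knockout males (2.14 ± 0.53, adjusted p = 0.0113) and in non-tumour knockout females (2.33 ± 0.63, adjusted p = 0.0491), whereas tumours against wild-type females gave 1.12 ± 0.59, adjusted p = 0.241. The female call of Ass1 was lost whichever of the 5 libraries was left out (adjusted p up to 0.488) and with the replicate number as a block, and the male one was lost without knockout male 3 (adjusted p = 0.0513). Arg1 stood at 643 and 770.1 CPM in the wild-type females, 2715, 1690.3 and 2459 in non-tumour knockout liver, 1909.6, 675 and 1984 in tumours, 436, 460.5 and 211 in wild-type males and 1268, 955 and 1234 in knockout males. Every non-tumour knockout library lay above both wild-type females, and every knockout male above every wild-type male. The rise passed the threshold in males (1.64 ± 0.42, adjusted p = 0.0126) and not in non-tumour females (1.69 ± 0.48, adjusted p = 0.0604). The difference between the knockout effects of Arg1 in the sexes was 0.05 ± 0.61, adjusted p = 0.975.

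Otc, the ornithine transcarbamylase encoded on the X chromosome, stood at 191 and 144 CPM in the wild-type females, 185, 274 and 242 in non-tumour knockout liver, 131, 83.9 and 221 in tumours, 93.3, 86.5 and 58.9 in wild-type males and 302, 275 and 391 in knockout males. In males the knockout libraries lay far above the wild-type ones, while in females the groups overlapped. The knockout difference was 2.02 ± 0.34, adjusted p = 0.00104 in males, a rise, and 0.48 ± 0.37, adjusted p = 0.489 in non-tumour females. Otc was also lower in wild-type males than in wild-type females (−1.07 ± 0.36, adjusted p = 0.0426). The difference between the knockout effects missed the threshold (−1.54 ± 0.49, adjusted p = 0.0547). The 250 bases before the RefSeq start of Otc (GRCm38.p6, chrX:10252055-10252304, plus strand) are shown because Otc had the lowest adjusted p of the urea cycle enzymes, with the D-box letters TTATGNAA, a motif of PAR bZIP clock factors, in capitals.
Otc: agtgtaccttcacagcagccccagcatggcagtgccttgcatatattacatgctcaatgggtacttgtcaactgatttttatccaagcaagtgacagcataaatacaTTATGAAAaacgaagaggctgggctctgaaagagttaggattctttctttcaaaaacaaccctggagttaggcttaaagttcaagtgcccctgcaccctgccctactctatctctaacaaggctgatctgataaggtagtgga
Of the 30 genes with a promoter in the RefSeq table, Otc alone held these letters on either strand, and 3.07% of all 32851 promoters did.

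Cps1, the carbamoyl phosphate synthetase that commits ammonia to the cycle, stood at 375 and 589 CPM in the wild-type females, 977, 614 and 2132 in non-tumour knockout liver, 612, 100.1 and 298 in tumours, 176, 356 and 162 in wild-type males and 566, 418 and 999 in knockout males. Non-tumour 3 was the highest library and tumour 2 the lowest, and every tumour lay below every non-tumour library, tumour 1 only just. It did not pass the threshold in males (1.52 ± 0.61, adjusted p = 0.0911) or in non-tumour females (1.36 ± 0.70, adjusted p = 0.279). Asl, the argininosuccinate lyase, stood at 362 and 405 CPM in the wild-type females, 1135, 861 and 1258 in non-tumour knockout liver, 1156, 295 and 713 in tumours, 877, 1083 and 367 in wild-type males and 733, 462 and 902 in knockout males. Its groups overlapped in males (−0.15 ± 0.46, adjusted p = 0.85), and both wild-type females lay below all non-tumour libraries (1.501 ± 0.55, adjusted p = 0.127). The sign of the male difference of Asl turned to 0.07 without wild-type male 2, and likewise without knockout male 2. Nags stood at 41.97 and 61.5 CPM in the wild-type females, 59.5, 47.4 and 49.2 in non-tumour knockout liver, 57.3, 28.7 and 35.0 in tumours, 43.1, 35.9 and 26.7 in wild-type males and 60.1, 47.1 and 64.4 in knockout males. Its differences were 0.70 ± 0.27, adjusted p = 0.079 in males and 0.01 ± 0.30, adjusted p = 0.996 in non-tumour females, the female estimate turning to −0.24 without wild-type female 2 and to −0.05 without non-tumour 1.

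**Figure D2:**
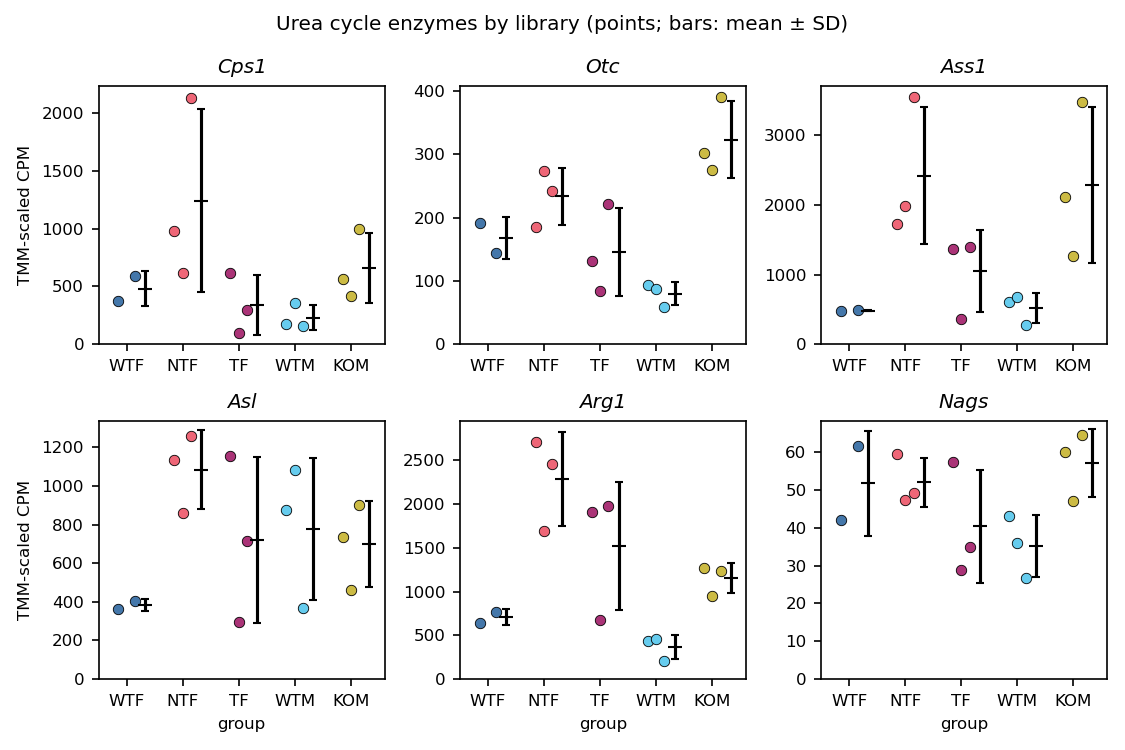
Level of the 6 urea cycle enzymes in TMM-scaled CPM on linear axes from 0, with 1 point per library and the mean ± SD beside it, for wild-type females (WTF, n = 2) and, with n = 3 each, non-tumour (NTF) and tumour (TF) tissue of knockout females, wild-type males (WTM) and knockout males (KOM). Ass1 averages 519 CPM in the wild-type males and 2284 CPM in the knockouts, while Asl averages 776 and 699 CPM.

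Among the carriers and the glutaminase Gls2, 3 of 6 genes rose in knockout males, where 14.3% of all genes were called higher. Slc38a3, a sodium-coupled glutamine carrier of the plasma membrane, stood at 934 and 1099.8 CPM in the wild-type females, 819, 844 and 959 in non-tumour knockout liver, 924, 343 and 622 in tumours, 472, 464 and 309.8 in wild-type males and 1459.7, 1090.2 and 1532 in knockout males. The wild-type males lay below all other libraries except tumour 2, and every knockout male lay above every non-tumour and tumour library. It rose in knockout males (1.71 ± 0.35, adjusted p = 0.00363), and the female difference was −0.22 ± 0.38, adjusted p = 0.785. Gls2, the liver glutaminase, rose from 89.3 ± 21.2 to 327 ± 95.4 CPM in males (SD, n = 3 each), by 1.87 ± 0.55, adjusted p = 0.0279. Gls2 overlaps Spryd4 on the other strand, and it is not stated whether counting used the strand. The mitochondrial aspartate-glutamate carrier Slc25a13 rose from 56.8 ± 15.3 to 116 ± 32.2 CPM (SD, n = 3 each), by 1.03 ± 0.27, adjusted p = 0.0141.

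The ornithine carrier Slc25a15, the cationic amino acid carrier Slc7a2 and the neutral amino acid carrier Slc38a4 did not pass the threshold in males, with 0.14 ± 0.59, 1.18 ± 0.57 and 1.03 ± 0.36. The promoter of Slc25a13 (GRCm38.p6, chr6:6217174-6217423, minus strand) is shown because it held 2 of the motifs searched, the E-box CACGTG and the CCAAT box, both in capitals.
Slc25a13: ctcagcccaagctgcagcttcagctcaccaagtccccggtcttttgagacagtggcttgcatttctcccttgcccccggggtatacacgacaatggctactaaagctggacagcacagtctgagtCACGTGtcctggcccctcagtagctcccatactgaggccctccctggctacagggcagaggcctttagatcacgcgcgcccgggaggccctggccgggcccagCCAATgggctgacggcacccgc
The E-box was found in 3 of the 30 promoters and in 6.02% of all promoters, and CCAAT in 17 of the 30 and in 33.8% of all.

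In methionine and homocysteine metabolism, Bhmt, the betaine-homocysteine methyltransferase that turns homocysteine back into methionine, stood at 1382 and 935 CPM in the wild-type females, 6367, 4654 and 4458 in non-tumour knockout liver, 5117, 2613 and 5528 in tumours, 1053, 994 and 765 in wild-type males and 6601, 4774 and 7238 in knockout males. All 9 knockout libraries, tumours included, lay above all 5 wild-type libraries. It rose in males (2.73 ± 0.38, adjusted p = 0.000309), in non-tumour females (2.15 ± 0.43, adjusted p = 0.0179) and in tumours against wild-type females (1.93 ± 0.43, adjusted p = 0.0133). The call of Bhmt in non-tumour females was lost without non-tumour 1 and held without non-tumour 2 or 3. Tumours and non-tumour liver differed by −0.22 ± 0.36, adjusted p = 0.978, and the knockout effects in the sexes by −0.57 ± 0.53, adjusted p = 0.516.

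Bhmt2, a neighbouring gene for an S-methylmethionine-homocysteine methyltransferase, stood at 159 and 205 CPM in the wild-type females, 194, 237 and 179.6 in non-tumour knockout liver, 206, 225 and 224 in tumours, 92.0, 118 and 96.8 in wild-type males and 289.6, 234 and 251 in knockout males. The wild-type males lay below every other library, and the female groups overlapped. Its rise was 1.33 ± 0.22, adjusted p = 0.00106 in males, and the female difference was 0.16 ± 0.25, adjusted p = 0.752. The sexes differed in that effect (−1.17 ± 0.33, adjusted p = 0.0339). Bhmt (chromosome 13, 93616675 to 93637961) and Bhmt2 (chromosome 13, 93655720 to 93674302) lie on the minus strand of GRCm38, 17.8 kb apart. The promoter of Bhmt2 (chr13:93674303-93674552, minus strand) is shown as that of a called gene in which none of the motifs searched was found, so no letter is in capitals.
Bhmt2: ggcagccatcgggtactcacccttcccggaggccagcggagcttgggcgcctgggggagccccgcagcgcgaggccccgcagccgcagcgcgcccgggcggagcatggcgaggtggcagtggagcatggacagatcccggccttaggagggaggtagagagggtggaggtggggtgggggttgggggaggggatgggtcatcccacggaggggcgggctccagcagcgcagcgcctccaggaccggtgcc

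Gnmt, the glycine N-methyltransferase that consumes S-adenosylmethionine, stood at 419.8 and 577 CPM in the wild-type females, 409, 511 and 1097 in non-tumour knockout liver, 278, 102 and 297 in tumours, 192, 157 and 65.4 in wild-type males and 598, 295 and 1186 in knockout males. It rose in knockout males (2.33 ± 0.58, adjusted p = 0.0116), with a wide spread among them, and the libraries of these groups did not overlap. Cth, the cystathionine gamma-lyase, rose from 98.9 ± 33.9 to 532 ± 276 CPM in males (2.43 ± 0.60, adjusted p = 0.012) and went from 133 ± 18.3 (n = 2) to 626 ± 275 CPM in non-tumour females (2.24 ± 0.70, adjusted p = 0.0816). Cbs, the cystathionine beta-synthase one step before it, had −1.18 ± 0.46 in males, an adjusted p of 0.0797. Mat1a, the liver methionine adenosyltransferase, had −0.71 ± 0.47 and Ahcy, the S-adenosylhomocysteine hydrolase, 0.94 ± 0.42, neither past the threshold. Of the 7 genes, 4 thus rose in males (Bhmt, Bhmt2, Gnmt and Cth) and 0 fell, against 14.3% and 6.32% of all genes. At an unadjusted p under 0.05 Cbs was lower and Ahcy higher.

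**Figure D3:**
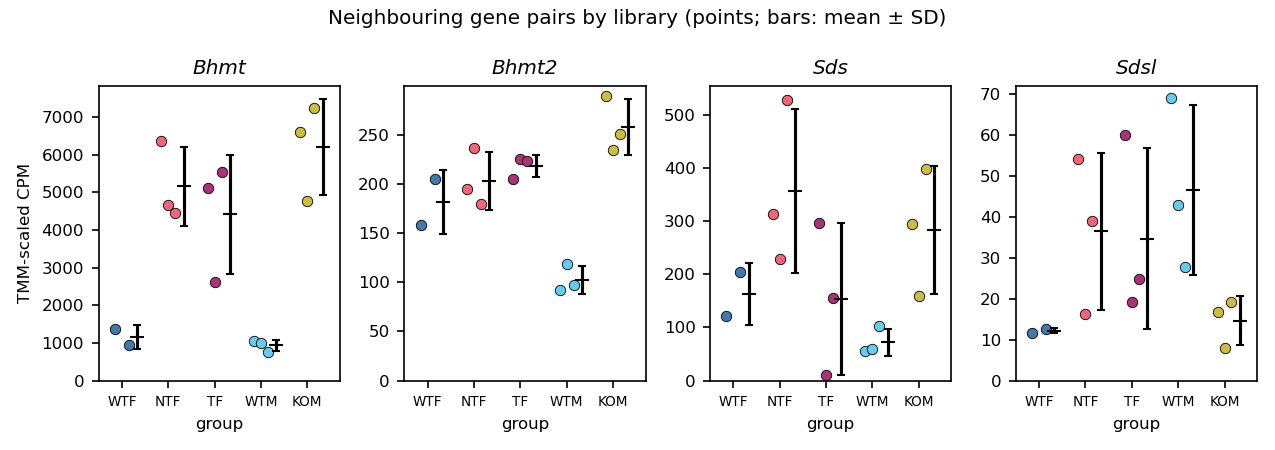
Levels of the neighbouring pairs Bhmt and Bhmt2 and Sds and Sdsl in TMM-scaled CPM on linear axes from 0, with 1 point per library and the mean ± SD beside it (WTF and WTM wild-type females and males, NTF and TF non-tumour and tumour tissue of knockout females, KOM knockout males). In females Bhmt averages 1159 CPM in wild-type and 5159.6 CPM in non-tumour knockout liver and Bhmt2 182 and 204 CPM, while Sdsl runs higher in wild-type than in knockout males.

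Among the 7 genes of serine, glycine and proline breakdown, 3 rose and 2 fell in knockout males, against 14.3% and 6.32% of all genes. Aldh4a1, the mitochondrial dehydrogenase that completes proline breakdown, stood at 130.5 and 146 CPM in the wild-type females, 132, 154 and 160.4 in non-tumour knockout liver, 129, 79.2 and 132 in tumours, 62.5, 79.9 and 42.7 in wild-type males and 196, 147 and 236 in knockout males. Wild-type males were lowest, apart from tumour 2, which lay just below wild-type male 2. It rose in males (1.64 ± 0.28, adjusted p = 0.00123) and not in non-tumour females (0.11 ± 0.31, adjusted p = 0.88). Prodh, the proline dehydrogenase of the first step, stood at 181 and 218 CPM in the wild-type females, 129, 250.3 and 194 in non-tumour knockout liver, 178, 63.5 and 96.4 in tumours, 116, 93.5 and 71.6 in wild-type males and 379, 258 and 323 in knockout males. All knockout males lay above all other libraries. The male difference of Prodh was 1.77 ± 0.36, adjusted p = 0.00363, a rise, and the female one −0.06 ± 0.39, adjusted p = 0.95. Prodh overlaps Dgcr6 on the other strand.

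Prodh2, the hydroxyproline dehydrogenase, ran the opposite way. It fell from 689 ± 56.0 to 234 ± 39.7 CPM in males (−1.56 ± 0.44, adjusted p = 0.02) and from 672 ± 155 in wild-type females (n = 2) to 179 ± 139.6 CPM in tumours (−1.91 ± 0.47, adjusted p = 0.0217). Non-tumour female liver, at 204 ± 32.5 CPM, just missed the threshold against wild type (−1.72 ± 0.47, adjusted p = 0.0524). Every knockout library lay below every wild-type library for Prodh2. Sdsl, a serine dehydratase-like gene, fell from 46.5 ± 20.8 to 14.6 ± 5.92 CPM in males, with −1.66 ± 0.52, adjusted p = 0.0385. In females it was 12.2 ± 0.636 CPM in wild type (n = 2) and 36.4 ± 19.1 CPM in non-tumour knockout liver (1.58 ± 0.60, adjusted p = 0.149), and the 2 effects differed (3.25 ± 0.80, adjusted p = 0.0221).

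Sds, the serine dehydratase itself, lies 3.72 kb from Sdsl on the other strand (chromosome 5, 120476526 to 120483932, against 120458186 to 120472810 for Sdsl). Its estimates in males and non-tumour females were 1.97 ± 0.81 and 1.13 ± 0.90, neither past the threshold, and Sds overlaps Plbd2 on the other strand. Amt, the aminomethyltransferase of the glycine cleavage system, stood at 38.5 and 42.7 CPM in the wild-type females, 43.2, 37.7 and 30.3 in non-tumour knockout liver, 46.5, 27.2 and 34.9 in tumours, 20.1, 23.8 and 18.7 in wild-type males and 37.1, 39.9 and 46.5 in knockout males. The wild-type males were the lowest libraries of all. It rose in knockout males (0.98 ± 0.22, adjusted p = 0.00644), while Gldc, the decarboxylase of the same system, had 0.66 ± 0.30, an adjusted p of 0.128.

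Of the 5 genes of tryptophan breakdown, 2 rose in knockout males, against 14.3% of all genes. Kmo, the kynurenine 3-monooxygenase, stood at 134 and 116 CPM in the wild-type females, 218, 193 and 185 in non-tumour knockout liver, 184, 124 and 204 in tumours, 151, 134 and 79.7 in wild-type males and 339.6, 255 and 446 in knockout males. The knockout males lay above every other library. The male difference of Kmo was 1.51 ± 0.30, adjusted p = 0.0029 and the female one 0.67 ± 0.33, adjusted p = 0.263, and Kmo overlaps Fh1 on the other strand, which has more counts in some libraries than Kmo has in its lowest. Acmsd, which diverts tryptophan carbon away from NAD synthesis, had the lowest FPKM of the 42 genes and the largest estimate in both knockout comparisons. It went from 3.06 ± 2.06 to 21.1 ± 9.95 CPM in males (2.81 ± 0.82, adjusted p = 0.0305) and from 3.74 ± 1.05 (n = 2) to 36.7 ± 17.5 CPM in non-tumour females (3.29 ± 0.97, adjusted p = 0.0758). Tdo2, the tryptophan dioxygenase that opens the pathway, had 0.20 ± 0.49 in males, Kynu, the kynureninase, 0.07 ± 0.31 and Haao, the 3-hydroxyanthranilate dioxygenase, 0.73 ± 0.34, none past the threshold.

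In tyrosine breakdown only Gstz1, the maleylacetoacetate isomerase, was called in males, from 315 ± 80.3 to 549 ± 107 CPM (0.80 ± 0.27, adjusted p = 0.0483). That call was lost whichever of the 6 male libraries was left out (adjusted p up to 0.217) and with the replicate number as a block. The estimates for Tat, the tyrosine aminotransferase, Hpd, the hydroxyphenylpyruvate dioxygenase, Hgd, the homogentisate dioxygenase, and Fah, the fumarylacetoacetase, were 0.90 ± 0.71, −0.27 ± 0.55, −0.54 ± 0.40 and 0.25 ± 0.30. Hgd was higher in wild-type males than in wild-type females (1.37 ± 0.46, adjusted p = 0.0442), with 455 ± 129 against 176 ± 18.9 CPM (n = 3 and 2).

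Histidine breakdown begins with Hal, the histidine ammonia-lyase, which stood at 172 and 199.6 CPM in the wild-type females, 309, 283 and 793 in non-tumour knockout liver, 219.9, 47.6 and 223 in tumours, 97.6, 85.1 and 73.4 in wild-type males and 443, 272 and 606 in knockout males. The lowest knockout male lay above the highest wild-type male by a wide margin. The male difference of Hal was 2.37 ± 0.53, adjusted p = 0.00689, a rise, and the non-tumour female one 1.31 ± 0.59, adjusted p = 0.217. Uroc1, the urocanate hydratase of the next step, stood at 595 and 696 CPM in the wild-type females, 335, 578 and 272 in non-tumour knockout liver, 361, 326 and 553 in tumours, 226, 251 and 257 in wild-type males and 688, 454 and 537 in knockout males. Wild-type males were the lowest group, while in females the wild-type libraries lay above all the non-tumour ones. Uroc1 rose in males (1.19 ± 0.32, adjusted p = 0.0162) and had an estimate below 0 in non-tumour females (−0.71 ± 0.35, adjusted p = 0.257). The difference of these effects was −1.90 ± 0.47, adjusted p = 0.0193. Ftcd, the formiminotransferase at the end of the pathway, had −0.00 ± 0.25, adjusted p = 0.998 in males and −0.74 ± 0.28, adjusted p = 0.14 in non-tumour females.

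The promoters of Hal (GRCm38.p6, chr10:93488518-93488767, plus strand) and Uroc1 (chr6:90333039-90333283, plus strand) are shown as those of 2 successive enzymes that both rose in knockout males. Capitals mark a C/EBP motif (TTGCNNAA), a CCAAT box and a TATA box (TATAAA, here on the other strand) in Hal, and 2 CCAAT boxes in Uroc1, the first on the other strand.
Hal: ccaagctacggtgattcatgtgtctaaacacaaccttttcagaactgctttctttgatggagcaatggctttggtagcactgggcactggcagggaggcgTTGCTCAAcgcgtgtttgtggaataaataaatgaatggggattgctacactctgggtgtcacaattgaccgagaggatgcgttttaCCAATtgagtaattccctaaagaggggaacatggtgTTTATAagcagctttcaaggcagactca
Uroc1: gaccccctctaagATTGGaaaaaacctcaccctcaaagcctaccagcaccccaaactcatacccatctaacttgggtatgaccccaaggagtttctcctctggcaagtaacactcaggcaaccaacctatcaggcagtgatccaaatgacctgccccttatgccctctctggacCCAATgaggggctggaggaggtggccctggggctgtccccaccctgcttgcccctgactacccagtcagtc
The C/EBP letters were found in 3 of 30 promoters and in 9.56% of all, and the TATA letters in 4 of 30 and in 12.4% of all. The HNF4 letters CAAAGTCCA and the cAMP response letters TGACGT were in 0 of 30, against 0.384% and 6.47% of all promoters. Both strands were searched, and a match is a description of the letters alone.

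None of the 3 aminotransferases was called in males. Got1, the cytosolic aspartate aminotransferase, had 0.73 ± 0.87, Gpt, the alanine aminotransferase, 0.85 ± 0.30 and Agxt, the alanine-glyoxylate aminotransferase, −0.06 ± 0.61. At an unadjusted p under 0.05, Gpt alone of these was higher in edgeR.

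**Figure D4:**
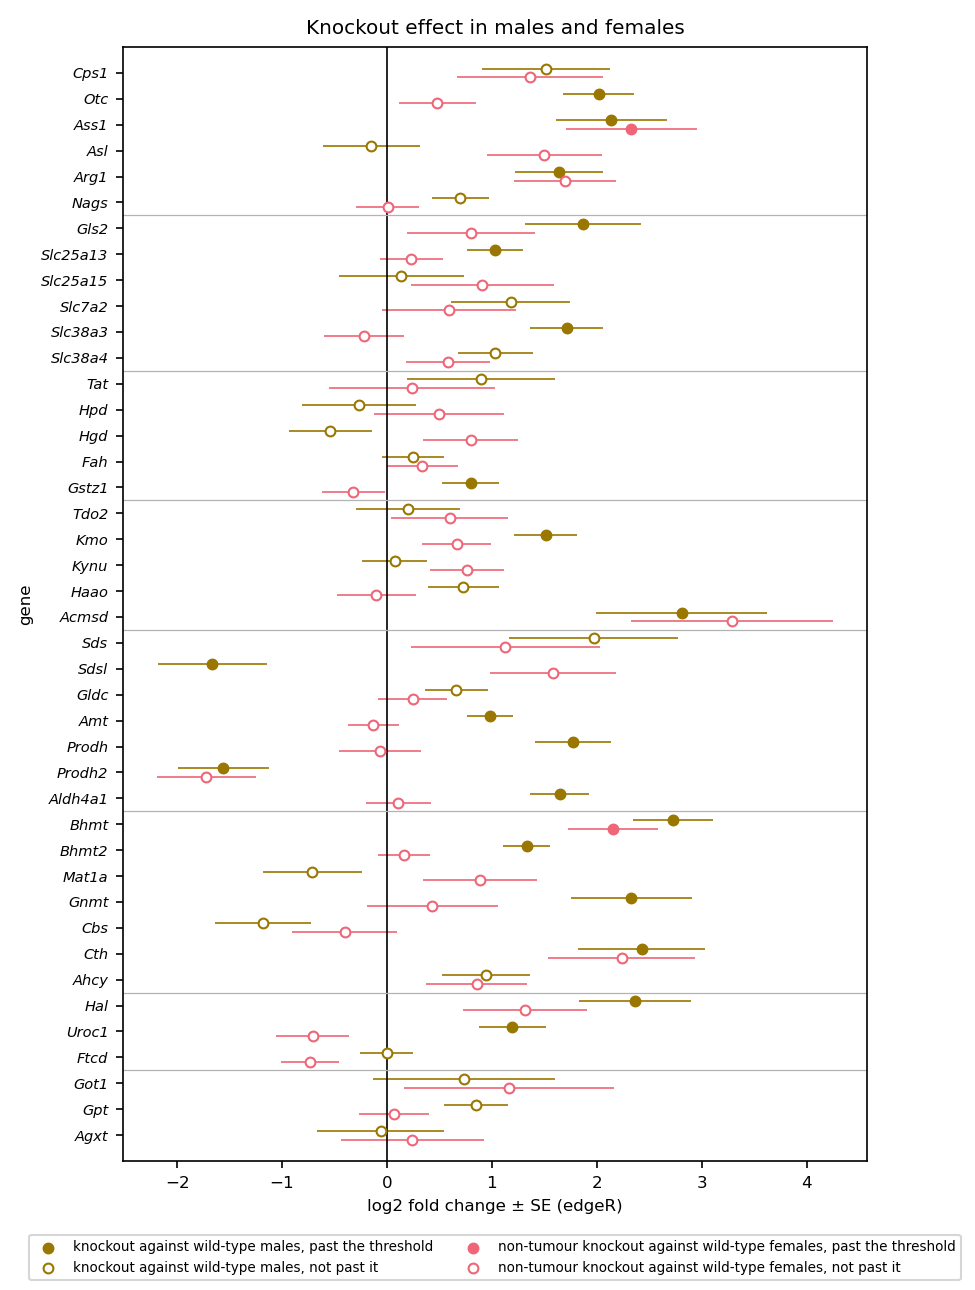
Knockout effect of each of the 42 genes as log2 fold change with its SE, in non-tumour females against wild-type females and in males against wild-type males, with filled points for genes past an adjusted p of 0.05 in edgeR. Estimates lie above 0 for 33 of 42 genes in each sex, and 20 genes pass the threshold in males and 2 in females.

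The male comparison rested on groups that also differed in other measured ways. The clock score, which subtracts the mean log2 level of 4 morning genes from that of 8 evening genes, lay between −0.886 and −0.287 in wild-type males and between 2.78 and 3.09 in knockout males. Genotype and this score therefore cannot be told apart among the males. With the score as a covariate, chosen after seeing the data, 2 of the 20 calls remained, Bhmt (2.94) and Amt (1.44), and the median over the 42 genes was 1.04. Over all genes, that fit called 2.13%, against 20.6% without the covariate. The females overlapped in the score, at 1.86 and 2.04 in wild type, 0.235 to 4.13 in non-tumour knockout liver and 0.662 to 3.75 in tumours.

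Cell type markers also moved with genotype or with single males. The 7 hepatocyte markers summed to 55487, 46606 and 24992 CPM in wild-type males 1, 2 and 3 and to 60289, 65832 and 52524 CPM in knockout males. The 4 periportal markers summed to 1248, 1308 and 1085 CPM and 2573, 1801 and 4009 CPM, with no overlap. The 7 endothelial markers summed to 185, 222 and 139 CPM in wild-type and to 108, 102 and 82.3 CPM in knockout males, also with no overlap, and 4 of the 7 fell. Knockout male 2, the lowest of its group for 41 of the 42 genes (33.6% of all genes tested), had the highest sum of the cholangiocyte markers in its group, 351 CPM against 64.3 and 71.0. Wild-type male 3 was the lowest of its group for 33 of 42 genes (28.6% of all genes tested). Without wild-type male 3, 16 of the 42 genes were called in males (23% of all genes). The part of these measures in the results was not tested. Leaving out each male library in turn gave 11 calls (without knockout male 3) to 19 (without knockout male 2). These 2 fits called 13.8% and 17.4% of all genes, against 20.6% with every library. In all 6 such fits 10 of the 20 calls held: Aldh4a1, Amt, Arg1, Bhmt, Bhmt2, Hal, Kmo, Otc, Prodh and Slc38a3.

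In females the comparison with wild type had only 2 wild-type libraries. Bhmt and Ass1 were the 2 genes called in non-tumour liver, and 9 of the 42 were higher at an unadjusted p under 0.05, against 10.4% of all genes, while 2 were lower against 10.9%. The libraries did not overlap for 19 genes higher and 4 lower in the knockout, against 23.2% and 26.5% of all genes. Without wild-type female 2 the median log2 fold change over the 42 genes was 0.58, and likewise without wild-type female 3. Leaving out non-tumour 1 left 0 calls, and leaving out non-tumour 2 or 3 left 1. Those 3 fits called 1.11%, 5.16% and 0.825% of all genes. The count was 9 with DESeq2, 12 without the low-count filter and 5 with these 2 groups fitted alone, fits that called 6.54%, 6.03% and 6.48% of all genes, against 4.16% in the fit of all libraries with the filter. The 10 macrophage markers summed to 123 to 131 CPM in wild-type and 240 to 518 CPM in non-tumour knockout females. The 7 cholangiocyte markers summed to 134 to 281 and 441 to 588 CPM. Neither sum overlapped between the groups. Their part in the result was not tested.

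The test of the difference between the knockout effects (non-tumour females minus males) called 1 of the 42 genes higher and 6 lower, against 2.2% and 8.68% of all genes. Besides Sdsl, Bhmt2 and Uroc1, these were Slc38a3 (−1.93 ± 0.51, adjusted p = 0.0252), Aldh4a1 (−1.54 ± 0.41, adjusted p = 0.0273), Prodh (−1.84 ± 0.52, adjusted p = 0.0368) and Amt (−1.12 ± 0.33, adjusted p = 0.0398). The median difference was −0.51 over the 42 genes and −0.07 over all genes. Abcb11 itself was called lower in this test in edgeR (−1.99 ± 0.49, adjusted p = 0.0181). This test uses the wild-type groups of both sexes, which themselves differed. In wild-type males against wild-type females, which share these libraries, 2 genes were higher and 7 lower (background 7.03% and 16.1%), and 4 lay higher and 20 lower without overlap (17.5% and 31.5%). The lower ones were Uroc1 (−1.40 ± 0.35, adjusted p = 0.0106), Amt (−0.96 ± 0.24, adjusted p = 0.011), Aldh4a1 (−1.16 ± 0.30, adjusted p = 0.0139), Slc38a3 (−1.29 ± 0.37, adjusted p = 0.0227), Bhmt2 (−0.83 ± 0.24, adjusted p = 0.024), Gnmt (−1.85 ± 0.61, adjusted p = 0.041) and Otc. The higher ones were Sdsl (1.93 ± 0.61, adjusted p = 0.037) and Hgd. The count of 7 lower lay near the background of 16.1%. Uroc1, Amt, Aldh4a1, Slc38a3, Bhmt2, Gnmt and Otc were thus called lower in wild-type males both against wild-type females and against knockout males. Both comparisons use the same wild-type males. Against wild-type females, the calls of Gnmt, Otc and Slc38a3 were lost whichever wild-type male was left out. The clock scores of the wild-type males and females did not overlap either, so that sex and this score cannot be told apart here. The median difference over the 42 genes was −0.53 without wild-type female 2 and −0.15 without wild-type female 3. Without non-tumour 1, 0 of the 42 passed edgeR's test of the difference (4.97% of all genes, against 10.9% with every library). Without non-tumour 3, wild-type male 1 or knockout male 1 the count was 1 (7.88%, 9.34% and 6.88% of all genes). It was 3 without wild-type male 2 (10.8%) and 4 without knockout male 3 (9.52%). Without wild-type male 3 it was also 4 (14.8%), but 3 higher and 1 lower, and 2 of these were among the 7. Between the wild-type sexes the count was 1 without wild-type male 1 and 5 without wild-type male 2. Those fits called 18.8% and 20.5% of all genes, against 23.1% with every library. Leaving out wild-type male 3 gave 3 higher and 1 lower there (27.1% of all genes), 3 of them among the 9. The median there was −0.59 without wild-type female 2 and −0.34 without wild-type female 3.

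Tumours were compared with the non-tumour liver of knockout females. The 4 genes with the smallest p were Tdo2, Cps1, Hal and Gnmt, all lower in tumours by estimate. Tdo2 stood at 197, 210.3 and 747 CPM in non-tumour liver and at 118, 66.8 and 111 CPM in tumours, against 278 and 231 CPM in wild-type females. Every tumour lay below every non-tumour library, and non-tumour 3 stood far above the other 2, which lay below both wild-type females. The estimate for Tdo2 was −1.97 ± 0.51, adjusted p = 0.665 in edgeR. DESeq2, run on 28842 genes, gave −1.96 with an adjusted p of 0.0428. The estimates for Cps1, Hal and Gnmt were −1.88 ± 0.61, −1.50 ± 0.52 and −1.57 ± 0.56, with the same adjusted p of 0.665. Every tumour lay below every non-tumour library for Hal and Gnmt too.

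Over the 42 genes, the median log2 fold change in tumours was −0.59, against −0.01 over all genes. At an unadjusted p under 0.05, 10 of 42 were lower and 0 higher, against 3.63% and 3.18% of all genes, and for 10 of 42 every tumour lay below every non-tumour library, against 7.64% of all genes (0 of 42 lay above, against 6.38%). Without the low-count filter, 8 of the 42 were called lower (1.17% of all genes called in either direction), among them Tdo2 (−2.00), Cps1 (−1.92), Hal (−1.53) and Gnmt (−1.60). Bhmt2, Uroc1 and Haao were the genes with an estimate above 0 in tumours, at 0.10 ± 0.22, 0.07 ± 0.32 and 0.01 ± 0.34.

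The 3 number-matched differences were unequal. Tumour 1 was lower than non-tumour 1 for 26 of 42 genes with a median of −0.11 on the log2 scale, tumour 2 than non-tumour 2 for 41 of 42 with −1.15, and tumour 3 than non-tumour 3 for 34 of 42 with −0.80. Over all genes tested, 51.9%, 50.6% and 50.3% were lower and the medians were −0.02, −0.01 and −0.00. Tumour 2 was the lowest tumour for 38 of 42 genes, against 29.8% of all genes tested. Its 7 hepatocyte markers summed to 44313 CPM, against 68064 and 78064 CPM in tumours 1 and 3, its stellate cell and fibroblast markers to 689.8 against 253 and 349.8 CPM, and its adipocyte markers to 195 against 18.0 and 191 CPM. The 9 pericentral hepatocyte markers summed to 2904, 724 and 524 CPM in tumours 1, 2 and 3 and to 4181, 2961 and 4631 CPM in non-tumour liver. The cholangiocyte markers summed to 695 to 1360 CPM in tumours and 441 to 588 CPM in non-tumour liver. The endothelial markers summed to 128 to 173 and 103 to 111 CPM. None of these 3 sums overlapped between tumours and non-tumour liver. The part of these cells in the tumour values was not tested. The number as a block over all groups left 0 calls among the 42 (0.00559% of all genes).

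**Figure D5:**
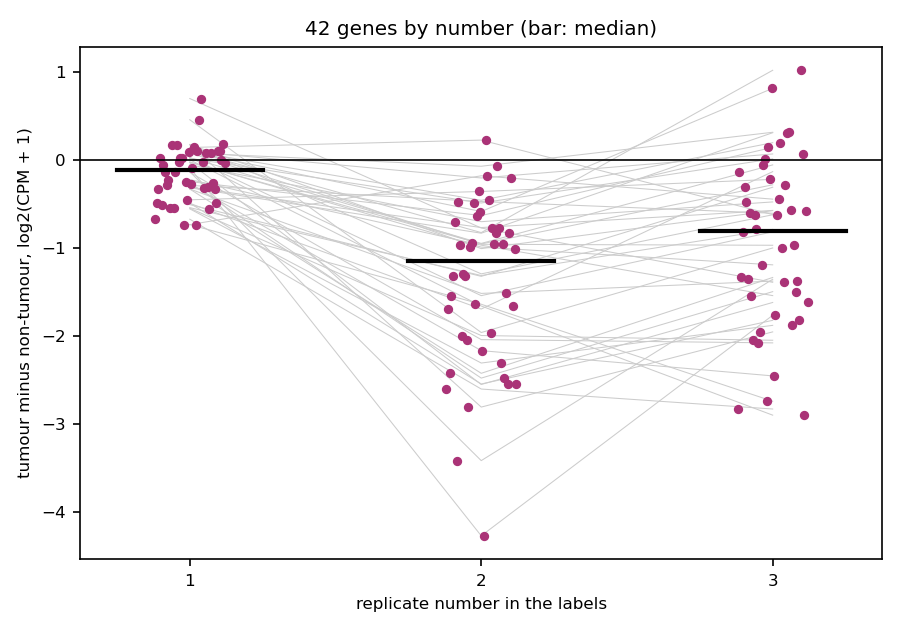
Tumour minus non-tumour level in log2(CPM + 1) for the replicate numbers 1, 2 and 3, with 1 point per gene, grey lines joining a gene's values and a black bar at the median of the 42 genes. The values of number 2 lie lowest in the median (−1.15) and those of number 1 nearest to 0 (−0.11).

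Against wild-type females, tumours had 1 gene higher (Bhmt, background 3.94%) and 1 lower (Prodh2, background 5.67%). This comparison shares its tumour libraries with the one above and its wild-type libraries with the non-tumour comparison. The median was −0.24 over the 42 genes and 0.03 over all genes, and without tumour 2 it turned to 0.05 over the 42, with 20 estimates below 0 in place of 27. The median over the 42 was −0.29 without wild-type female 2 and −0.13 without wild-type female 3. Leaving out tumour 2 left 1 call and leaving out tumour 1 gave 5. Those fits called 4.52% and 7.74% of all genes, against 9.61% with every library.

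The 42 genes lie on 19 chromosomes, so that few are neighbours. Over the 14 libraries, the log2 level of a gene and the mean of the other 41 had a median Pearson correlation of 0.746, above 0.5 for 33 of 42 genes. Cps1 (0.93), Hal (0.93) and Gls2 (0.92) were nearest to the rest, and Prodh2 (−0.21) was the only gene below 0. These values describe libraries that share group, depth and scaling, and no test goes with them. Within groups, the median SD of log2 level over the 42 genes was 0.728 in tumours and 0.429 in non-tumour liver. The 8069 tested genes with a mean above 10 CPM had 0.250 and 0.276. In wild-type females the same medians were 0.187 and 0.204, in wild-type males 0.420 and 0.307, and in knockout males 0.388 and 0.255.

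A further 75 genes of amino acid metabolism outside the 42 were read in the same tests. In knockout males 33 of 75 rose and 5 fell, with a median log2 fold change of 0.85, against 14.3% and 6.32% of all genes called higher and lower. Those with the smallest p were Ido2, an indoleamine dioxygenase (2.81 ± 0.27, adjusted p = 3.04e-05), Dhtkd1 of lysine breakdown (3.37 ± 0.44, adjusted p = 0.000227), Auh of leucine breakdown (1.68 ± 0.24, adjusted p = 0.000357), Pcbd1, which recycles the cofactor of phenylalanine hydroxylase (1.85 ± 0.27, adjusted p = 0.00045), and the betaine carrier Slc6a12 (1.56 ± 0.24, adjusted p = 0.000554). Among the genes that fell were Bckdk, the kinase that restrains branched-chain breakdown (−1.05 ± 0.22, adjusted p = 0.00496), the amino acid carrier subunit Slc3a2 (−0.76 ± 0.22, adjusted p = 0.0227), Asns and Phgdh. Asns (asparagine synthetase) had 7, 72 and 24 counts in wild-type males and 0, 2 and 1 in knockout males. Phgdh of serine synthesis had 20, 3 and 715 counts and 3, 8 and 1, so that wild-type male 3 carried its difference. In non-tumour females 2 rose, Asrgl1 (1.69 ± 0.39, adjusted p = 0.0277) and Qprt (1.15 ± 0.30, adjusted p = 0.0468), and 2 fell, Ppm1k (−1.55 ± 0.31, adjusted p = 0.0183) and Bcat2 (−1.14 ± 0.29, adjusted p = 0.0381), against 1.9% and 2.26% of all genes, so that these counts lie near the background. Between tumours and non-tumour liver 0 of 75 passed (background 0%). At an unadjusted p under 0.05 in edgeR, 2 were higher and 12 lower, against 3.18% and 3.63% of all genes.

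Of 16 genes for regulators of these pathways, 6 rose and 2 fell in knockout males, against 14.3% and 6.32% of all genes. In non-tumour females 0 rose and 4 fell, against 1.9% and 2.26% of all genes. Prox1, a homeobox transcription factor of hepatocytes, rose in males (0.94 ± 0.19, adjusted p = 0.00346) and fell in non-tumour females (−0.87 ± 0.21, adjusted p = 0.0312). Its effects in the sexes differed (−1.81 ± 0.28, adjusted p = 0.0015). Ppargc1a, a coactivator induced by fasting, rose in males (2.62 ± 0.42, adjusted p = 0.000857), as did Cebpa (1.16 ± 0.24, adjusted p = 0.00449), Nr3c1, the glucocorticoid receptor (0.74 ± 0.20, adjusted p = 0.0158), and Onecut1. Atf5 (−1.47 ± 0.41, adjusted p = 0.0199) and the bile acid receptor Nr1h4 (−0.94 ± 0.29, adjusted p = 0.0325) fell. In non-tumour females Ppara, the fatty acid receptor (−2.14 ± 0.38, adjusted p = 0.0118), and Gcgr, the glucagon receptor (−1.26 ± 0.31, adjusted p = 0.0372), also fell. No regulator was called between tumours and non-tumour liver (background 0%). At an unadjusted p under 0.05 in edgeR, 1 was higher and 3 lower, against 3.18% and 3.63% of all genes.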

How the data were processed

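Liver RNA of 14 libraries in 5 groups was measured by RNA sequencing. Reads were aligned to GRCm38 with HISAT2 2.0.5 and counted with featureCounts 1.5.0-p3, per the submitters' processing notes. The authors deposited whole counts per gene, not scaled, with 14745140 to 19480538 counts per library. The deposited FPKM values are relative to gene length and to 1 total per library, which is not the sum of the counts, and were used here only to order genes by level. The strand setting is not given in the sources used here, and 16 of the 42 genes overlap another gene, 7 of them a protein-coding one.

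Counts were scaled (TMM), filtered (filterByExpr on the 5 groups, 17874 of 54532 genes) and tested with edgeR 4.0.16 under R 4.3.3 by a robust quasi-likelihood F test in 1 fit of all 14 libraries. Tests were 2-sided, and Benjamini-Hochberg adjustment covered all genes tested in each of 6 comparisons, with a threshold of 0.05. The fit was tested on simulated data with known changes in 200 genes. In non-tumour against wild-type females it recovered 11% of the 2-fold and 87% of the 4-fold changes. For tumours against non-tumour liver the shares were 16% and 90%, and in males 22% and 96%. Most simulated 2-fold changes were thus not called. Log2 levels used log2(CPM + 1). Each of the 42 genes could be named. Values per library were given for the urea cycle enzymes, for the 12 genes with the smallest adjusted p in any comparison and for the 4 with the smallest p in tumours against non-tumour liver. Of the 75 other amino acid genes and 16 regulators, at most 5 called genes per direction and comparison were eligible to be named, though a few of those are not reported here. The genes and lists were chosen with earlier results of these data known. Promoters (250 bases before the start) are from RefSeq (GRCm38.p6), which held 30 of the 42. Motifs were searched in all 250 bases, while printed sequences were trimmed to bases outside the gene as the deposited counts place it. Some RefSeq starts lay inside that gene, for Kmo by 11812 bases.

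Over 11380 genes with at least 10 counts in every library, deviations of tumour and non-tumour libraries from their group means correlated by 0.448, 0.364 and 0.293 for equal numbers 1, 2 and 3, each above the values for unequal numbers. A pairing by equal numbers in these 2 groups was therefore used as an alternative fit only, and the main fit had no block. Pairs from different animals reached like values, 0.416 for non-tumour female 3 and knockout male 3 and 0.369 for non-tumour female 2 and knockout male 2. The alternatives were RLE scaling, no low-count filter (28842 genes), DESeq2 1.42.0, fits restricted to the groups compared, the replicate number as a block, and leaving out single libraries. Chosen after seeing the data were the clock score as a covariate and leaving number 1 out of both female knockout tissues.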

Additional observations from a re-analysis of the deposited data

Results flagged for a closer look

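For 7 genes the knockout effect in non-tumour females differed from that in males, by a test of the difference itself in edgeR. On the log2 scale the female effect minus the male effect was −1.93 for Slc38a3, −1.12 for Amt, −1.84 for Prodh, −1.54 for Aldh4a1, −1.17 for Bhmt2, −1.90 for Uroc1 and 3.25 for Sdsl. For Slc38a3, Amt, Prodh and Uroc1 the female estimate was below 0 (−0.22, −0.13, −0.06 and −0.71) and the male one above it, and for Sdsl the signs were the reverse (1.58 in females and −1.66 in males). Wild-type males stood apart from wild-type females in these genes, Prodh just missing the threshold there (−1.09, edgeR adjusted p = 0.0538). The count of 7 fell to 0 without non-tumour 1 and to 1 with the clock score as a covariate. Those fits called 4.97% and 2.37% of all genes, against 10.9% in the main fit, so that the drop was not particular to these genes. Without wild-type female 3 the median difference over the genes described here was −0.15, against −0.51 with every library. The count thus depends on single libraries and on the fit. No group of 4 or more libraries was present, so single libraries were not screened for standing apart.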

How the results depend on the processing

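Calls among the 42 genes were 2 in non-tumour against wild-type females, 0 in tumours against non-tumour liver, 2 in tumours against wild-type females, 20 in knockout against wild-type males, 7 for the difference between the sexes and 9 between the wild-type sexes. RLE scaling gave 1 in the first and 4 for the difference (4.18% and 10.4% of all genes called). It moved the median of all genes in males from 0.11 to 0. Without the low-count filter the first 3 counts were 12, 8 and 6 (6.03%, 1.17% and 8.72% of all genes called), and with DESeq2 they were 9, 1 and 4 (6.54%, 0.0936% and 10.3%), against 4.16%, 0% and 9.61% of all genes otherwise. The compared groups fitted alone gave 5 in non-tumour females (6.48% of all genes). The clock score as a covariate gave 1 in non-tumour females, 2 in males, 1 for the difference and 1 between the wild-type sexes (4.4%, 2.13%, 2.37% and 9% of all genes). It also turned Asl in males from −0.15 to 0.11. The cause of these moves was not tested. Leaving out 1 library other than a wild-type female gave 0 to 1 in non-tumour females and 0 in tumours against non-tumour liver. It gave 1 to 5 in tumours against wild-type females, 11 to 19 in males, 0 to 6 for the difference and 1 to 5 between the wild-type sexes. The shares of all genes called were, in that order, 0.825% to 5.16%, 0% to 0.236% and 4.52% to 7.74%. In males, for the difference and between the wild-type sexes they were 13.8% to 23%, 4.97% to 14.8% and 18.8% to 27.1%. Leaving out 1 library put Asl in males between −0.61 (without wild-type male 3) and 0.075 (without knockout male 2), with 0.069 without wild-type male 2. Nags in non-tumour females lay between −0.24 (without wild-type female 2) and 0.35 (without wild-type female 3), with −0.05 without non-tumour 1. Where 2 wild-type females became 1, the lone library was assumed to vary like the other groups.

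With the replicate number as a block over all groups the counts, in the order above, were 2, 0, 2, 21, 6 and 7. The shares of all genes called were 2.69%, 0.00559%, 7.68%, 19.6%, 9.01% and 19.7%. Nags in non-tumour females turned to −0.13. In that fit Ass1 in non-tumour females (2.24), Gstz1 in males (0.79), Bhmt2 for the difference (−1.17) and Otc (−1.04), Hgd (1.30) and Gnmt (−1.77) between the wild-type sexes lost the threshold, and Nags in males (0.71) passed it. With the block in the tumour and non-tumour libraries alone, or with number 1 left out of both, 0 of 42 were called between them. Those 2 fits called 0.0112% and 0.113% of all genes. Only tumours and non-tumour liver could share animals, so that in the other groups the block joins libraries by number alone. With 2 or 3 libraries a group, errors were wide for some genes, and not by level alone. Between knockout and wild-type males the SE was 0.87 for Got1, 0.81 for Sds and 0.82 for Acmsd, with 16 counts in its lowest library. For Amt and Nags, also among the genes of lowest FPKM, it was 0.22 and 0.27.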
